A study of Homo sapiens with 44 samples.

Results

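Baseline m6A immunoprecipitation in NGP cells is described here from 6 of the 44 libraries of the series. These are 3 libraries of RNA fragments recovered with an antibody against N6-methyladenosine (m6A), called RIP, and 3 libraries of the input RNA. They were chosen by their labels alone, as all libraries of NGP cells kept in DMSO for 6 days. NGP is an established human neuroblastoma cell line, labelled as MYCN-amplified and with the genotype WT. The wider study treated NGP and Kelly cells, another MYCN-amplified neuroblastoma line of genotype WT, with 8 µM STM2457 or with DMSO, the solvent control. STM2457 is a small molecule that inhibits METTL3, the catalytic subunit of the mRNA m6A methyltransferase. The 6 NGP libraries given STM2457 for 6 days entered the fit only to estimate the spread, and Kelly cells kept in DMSO for 6 days or 1 day (3 input and 3 RIP libraries each) were used for comparison. In all of these groups polyadenylated RNA was fragmented by sonication, and control RNAs with and without m6A were spiked in. The spike-in RNAs were not analysed here, so every ratio is relative to the typical gene and gives no absolute amount of m6A.

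The m6A mark is placed on nascent mRNA by a complex of METTL3 and METTL14 with WTAP and other partners, mostly at adenosines within short motifs of which GGACU is the best known. It is found most often in long internal exons, in last exons and around stop codons, while sequence close to splice junctions is protected by exon junction complexes. YTH domain proteins bind the mark, and methylated mRNAs often have short half-lives. The comparison of RIP with input asked which transcripts the antibody recovered when METTL3 was not inhibited. A count per gene adds all fragments of a transcript, so it shows neither the position of a mark nor the share of molecules that carry it.

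The inputs held 11050535, 5585214 and 10053729 fragments assigned to genes, and the RIP libraries held 15966382, 15572613 and 24070279. Levels are given in CPM, the fragments of a gene per 1e6 assigned fragments, scaled with edgeR's TMM factors. Across genes, log2 CPM of 2 inputs correlated at 0.962 to 0.983, of 2 RIP libraries at 0.964 to 0.987, and of an input with a RIP library at 0.824 to 0.860. RIP replicate 1 stood apart from the other RIP libraries: the chi-square per degree of freedom of its counts against theirs was 100 and 138.8, compared with 25.1 between replicates 2 and 3. Among the inputs replicate 2 had the lowest depth and the lowest correlations. The labels do not say whether replicates were separate cultures, so p-values measure only the spread between these libraries. The inputs carried the markers of adrenergic neuroblastoma, with 10 of 11 above 1 CPM on average. HAND2 stood at 2678, 3044 and 2836 CPM, and TH, which makes a precursor of noradrenaline, was the exception at 0.92 CPM on average. Of 6 fibroblast markers 4 were above 1 CPM (sum 129 to 164 CPM), with DCN and COL1A2 near 0. Among markers of blood, endothelium and epithelium, PTPRC, HBB, PECAM1 and KRT5 had no counts in any input. VWF, CDH5 and KRT19 averaged under 1 CPM. CD68, a blood marker, averaged 5.61 CPM, and EPCAM, an epithelial marker, 1.12 CPM.

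Of 19923 genes listed, 13088 had enough counts to be tested. With edgeR's quasi-likelihood test, Benjamini-Hochberg adjusted p under 0.05 and a ratio of at least 2-fold, 2739 genes (20.9%) were enriched in RIP and 2490 (19.0%) were depleted. A further 2039 genes passed the test with a smaller ratio, and 5820 did not pass it. The ratio reached 4-fold in 890 enriched and 806 depleted genes, and 8-fold in 199 and 142. All 3 RIP libraries lay above all 3 inputs in 4153 genes (31.7%) and below them in 3804 (29.1%). The enriched genes held 10.1%, 10.5% and 9.76% of the fragments of the 3 inputs and 34.3%, 34.6% and 34.4% of those of the 3 RIP libraries. The depleted genes went the other way, from 40.3%, 39.7% and 41.2% of the input to 12.3%, 13.3% and 12.4% of the RIP fragments. Depleted transcripts were the more abundant ones, with a median input level of 57.4 CPM against 15.6 CPM for the enriched and 23.7 CPM for all tested genes. In 26 enriched genes no input library had a count, and their fitted ratios are no measure of size.

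The scale of these ratios depends on what is held constant. The median gene had a log2 ratio of 0.08 with TMM factors and 0.18 with library totals alone. When the RIP libraries were scaled on the 13 mitochondrially encoded mRNAs it moved to 0.82, and 5134 genes were then called enriched and 1005 depleted. Enriched and depleted therefore mean above or below the typical gene throughout.

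**Figure D1:**
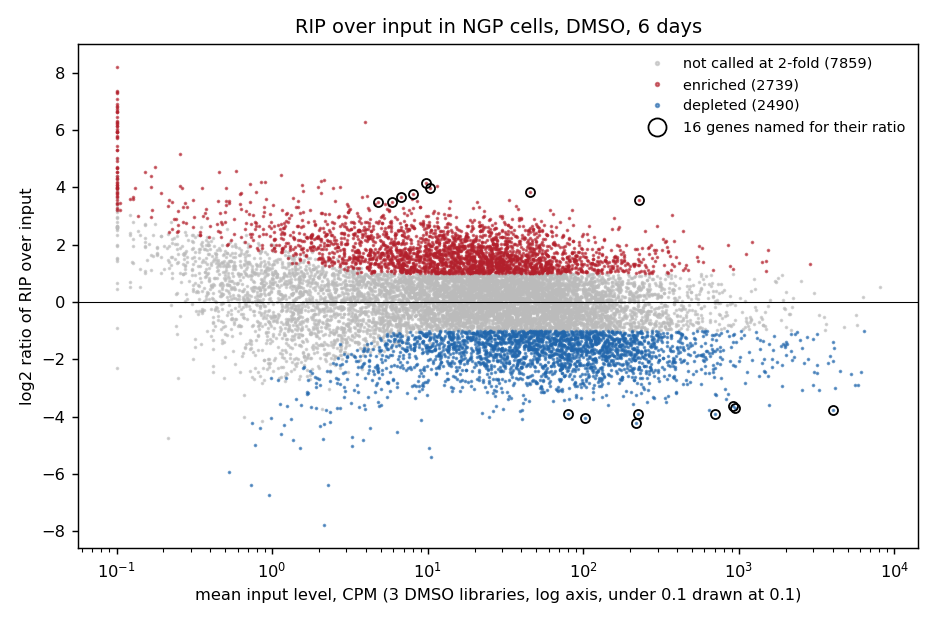
Log2 ratio of RIP over input (vertical axis) against the mean level in the 3 inputs in CPM (log axis, lower levels drawn at 0.1) for 13088 genes, 1 point per gene. Red points are the 2739 enriched and blue points the 2490 depleted genes, and the open circles mark the 16 genes named for their ratio; most genes above 300 CPM in the input lie below 0.

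The transcripts with the highest ratios came from genes of varied function. The 8 highest and 8 lowest ratios were taken among genes of at least 30 CPM over the 6 libraries, called at 2-fold, with no overlap between groups and no exon position shared with another gene. PUS3, a pseudouridine synthase that modifies tRNA, had the highest ratio among these. JRKL, a gene derived from a transposase, followed, and then GEMIN6, a subunit of the SMN complex that assembles splicing particles, and MTERF1, a mitochondrial transcription termination factor. ING2, a chromatin reader of histone methylation, and ZNF92, a zinc finger protein with a KRAB domain, were also among them. The windows shown are the GGACT nearest to the stop codon in the reference transcript of these genes, in capitals, within 30 bases (sense strand, 5′ to 3′, GRCh38, GENCODE 44). They show where the best-known m6A motif lies in the transcripts that the antibody recovered most, and they are matches of letters, not measured sites.
PUS3: aaaagccaaaagGGACTgtaatgacacact
JRKL: ctgccctccagtGGACTgaaaatttattgg
GEMIN6: gagacgctccaaGGACTctctgtgtggctg
MTERF1: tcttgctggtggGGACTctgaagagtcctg
ING2: ctgctacgtgcaGGACTaccttgagtgcgt
ZNF92: ggaatatgacaaGGACTttaaatggttgtc
The windows of PUS3 (chr11:125893861-125893890, minus strand), JRKL (chr11:96392088-96392117, plus strand) and GEMIN6 (chr2:38781750-38781779, plus strand) lie in the coding part of the last exon. Relative to the stop codon their motifs are at -89, -120 and -126 bases, upstream of it. MTERF1 (chr7:91872034-91872063, minus strand) and ZNF92 (chr7:65399950-65399979, plus strand) have theirs in the 3′ UTR, 1547 and 91 bases past the stop codon. For ING2 (chr4:183505270-183505299, plus strand) it is in the coding part of exon 1 of 2, at -752.

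PUS3 was measured at 11.5, 9.22 and 8.26 CPM in the inputs and at 173, 187 and 161 CPM in the RIP libraries. Its log2 ratio was 4.16 ± 0.23 (SE, 3 libraries per group), a 17.8-fold enrichment (adjusted p = 1.78e-11). JRKL stood at 6.69, 14.4 and 10.1 CPM in input and 187, 159 and 134 CPM in RIP, which gave 3.98 ± 0.30. GEMIN6, the most abundant of those with a printed window, had 42.8, 53.8 and 40.1 CPM in input and 446, 842 and 676 CPM in RIP (3.85 ± 0.24). In each of these genes the lowest RIP library was more than 8-fold above the highest input. MTERF1 had 10.2, 4.04 and 10.1 CPM in input and 99.6, 140.0 and 106 CPM in RIP (3.79 ± 0.31). ING2 was among the least abundant, with 4.58, 1.54 and 8.16 CPM in input against 53.9, 57.7 and 58.5 CPM in RIP (3.50 ± 0.33). ZNF92 had 8.16, 1.54 and 8.05 CPM against 47.4, 87.6 and 75.9 CPM (3.49 ± 0.35). In both of these, input replicate 2 was the lowest value. The remaining pair were C8orf48, an uncharacterised gene with 1 exon (3.66 ± 0.27), and RPL36AL (3.55 ± 0.29). RPL36AL codes for a ribosomal protein like RPL36A, and its reads are uncertain because ribosomal protein genes have many near-identical copies. Its GENCODE 44 transcript holds 0 GGACT motifs. All 8 were still enriched when a GC offset was added to the fit, with log2 ratios from 2.43 in ZNF92 to 3.59 in PUS3.

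The 8 lowest ratios belonged to genes of varied function as well. SIVA1, which codes for a regulator of apoptosis, stood at 214, 200.4 and 240.4 CPM in the inputs and 10.5, 11.6 and 13.4 CPM in RIP. Its log2 ratio was -4.20 ± 0.22 (adjusted p = 1.78e-11), an 18.4-fold depletion. FASN, the fatty acid synthase, had 958, 890.0 and 985 CPM in input and 77.5, 74.8 and 64.6 CPM in RIP (-3.71 ± 0.20). CYC1, cytochrome c1 of the respiratory chain, had 241, 178 and 255 CPM in input and 15.3, 16.5 and 13.9 CPM in RIP (-3.89 ± 0.25). RPS2, a protein of the small ribosomal subunit with many pseudogene copies, had 3924, 3846 and 4345 CPM in input and 264, 365 and 254 CPM in RIP (-3.78 ± 0.21). In each of these 4 genes the highest RIP library was far below the lowest input. NOP53, a ribosome biogenesis factor, was at -3.64 ± 0.20. NPW, a neuropeptide precursor, was at -3.91 ± 0.40, and C20orf27 at -4.03 ± 0.28. SLC25A6, an ADP/ATP carrier listed on 2 chromosomes in the deposited tables, was at -3.89 ± 0.34. The plot of the levels of these 16 genes by library shows no overlap of input and RIP in any of them, which the choice of genes required.

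**Figure D2:**
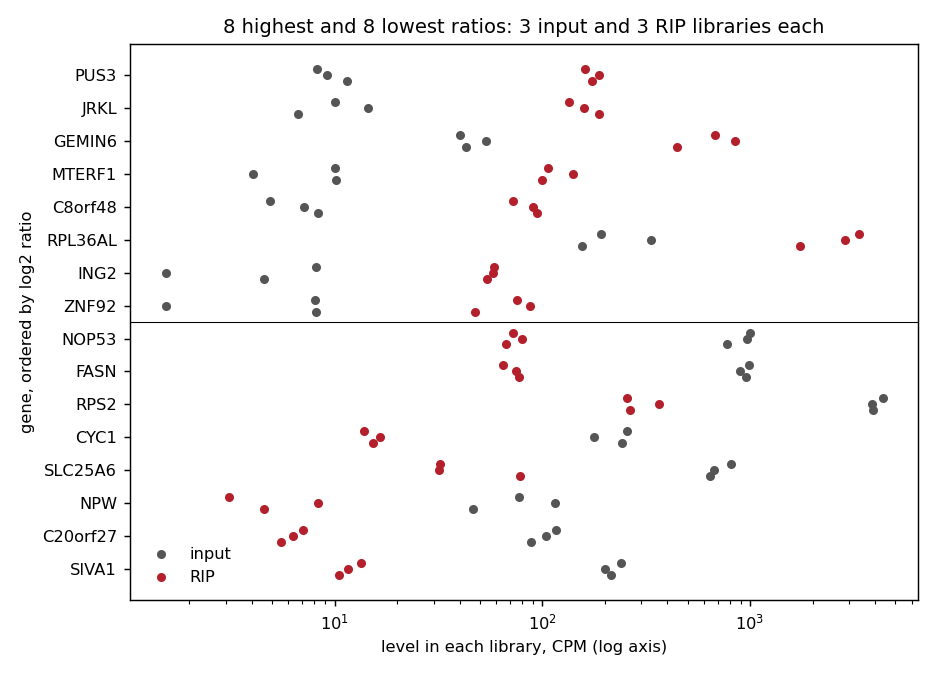
Level in each library in CPM (log axis) of the 8 genes with the highest (top) and the 8 with the lowest log2 ratio (bottom), with 3 grey points for the inputs and 3 red points for the RIP libraries. PUS3 moves from 8.26 to 11.5 CPM in input to 161 to 187 CPM in RIP, and SIVA1 from 200.4 to 240.4 CPM in input to 10.5 to 13.4 CPM in RIP.

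Zinc finger genes held the most enriched members of any list. Most of these genes code for proteins that bind DNA, many of them to repress transcription, and their zinc fingers commonly lie in a long last exon. Of 530 ZNF genes listed, 445 were tested, and 293 (65.8%) were enriched and 17 (3.82%) depleted, with a median log2 ratio of 1.61 against 0.08 for all genes tested. The median was 1.514, 1.496 and 1.34 in RIP replicates 1, 2 and 3. Among the 200 members of at least 10 CPM in the input, 99 (49.5%) were enriched and 17 depleted, and their median was 0.98. For all genes of that level the shares were 19.0% and 24.3%. ZNF131 had 24.8, 35.4 and 27.6 CPM in input and 231, 256 and 219 CPM in RIP (3.02 ± 0.19). ZNF638, an RNA-associated zinc finger protein spread over 38 exon blocks, had 46.9, 48.0 and 50.0 CPM in input and 306, 373 and 392 CPM in RIP (2.89 ± 0.18). Both were enriched in every RIP library. The lowest among members of that level were ZNF358 (-2.91 ± 0.29) and ZNF385A (-2.59 ± 0.25). The transcripts of the list had a median GC content of 43.4% against 49.1% for all tested genes, and with the GC offset 249 of 442 were called enriched and the median was 1.22. Paralogous zinc finger genes can share reads, and 134 of the tested members also shared exon positions with another gene.

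Protocadherins, adhesion proteins of neurons, many of them encoded in clusters, had the highest median of any list. Of 66 genes 60 were tested, 41 (68.3%) were enriched and 0 depleted by edgeR at 2-fold, and the median log2 ratio was 1.97. Every list count of 0 given here stayed 0 when p was left unadjusted (under 0.05), and DESeq2 gave 0 as well. Most were at low levels, and only 10 had at least 10 CPM in the input; 9 of those were enriched. PCDHB2 stood at 61.9, 33.8 and 47.7 CPM in input and 372, 244 and 218 CPM in RIP (2.53 ± 0.24), and PCDHB16 at 21.0, 15.95 and 16.9 CPM against 97.7, 103 and 83.4 CPM (2.39 ± 0.21). Both are genes with 1 exon block in the deposited tables. The lowest among the abundant members were PCDH8, not called at -0.26 ± 0.22 (called at -0.57 without RIP replicate 1, adjusted p = 0.0128), and PCDH17, called at 1.26 ± 0.25. With the GC offset PCDH8 was at 0.31 and not called (adjusted p = 0.163). Of the 60 members, 39 shared exon positions with another listed gene, so their counts cover only what was unique. The median was 1.89, 1.38 and 1.08 in the 3 RIP libraries, and 1.78 with the GC offset. Genes with BTB domains and zinc fingers or Kelch repeats, which include adaptors of ubiquitin ligases, were also enriched often (42 of 94, 44.7%, with 5 depleted and a median of 0.90). ZBTB1 had the highest ratio among members of at least 10 CPM in the input (3.53 ± 0.21), with 14.0, 13.8 and 13.7 CPM in input and 160, 160 and 159 CPM in RIP, although it shared exon positions with another gene. ZBTB18, a repressor in neuronal development, was at 2.49 ± 0.24, while KLHL17 was at -3.39 ± 0.25.

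Transcripts of the m6A pathway itself were spread over the whole range. Of the 11 methyltransferases and partners tested, 7 (63.6%) were enriched and 1 (9.09%) depleted, with a median log2 ratio of 1.44. Of all genes tested 20.9% were enriched and 19.0% depleted. ZC3H13, which holds the writer complex in the nucleus, was highest: 102, 131 and 91.9 CPM in input and 624, 672 and 730.4 CPM in RIP (2.64 ± 0.22). METTL14, the partner that binds RNA together with METTL3, had 15.5, 16.9 and 19.8 CPM in input and 53.7, 95.4 and 81.9 CPM in RIP (2.14 ± 0.30). The adaptor subunits CBLL1 (1.81 ± 0.21), VIRMA (1.64 ± 0.21), RBM15 (1.64 ± 0.27) and WTAP (1.15 ± 0.18) were enriched as well. METTL16, which methylates U6 RNA and the MAT2A transcript, was at 1.44 ± 0.23. METTL3, the catalytic subunit, was not called: it had 100.3, 84.4 and 87.8 CPM in input and 88.5, 63.8 and 67.7 CPM in RIP, a log2 ratio of -0.31 ± 0.20 (adjusted p = 0.187). The ranges of METTL3 in input and RIP overlapped. RBM15B was at 0.62 ± 0.28 (adjusted p = 0.066) and lay far higher in RIP replicate 1 (186 CPM) than in the others (69.8 and 73.7 CPM). It was called at 0.78 without input replicate 2 (adjusted p = 0.0379), at 0.86 without RIP replicate 2 (adjusted p = 0.0122) and at 0.84 without RIP replicate 3 (adjusted p = 0.0154). With the GC offset RBM15B was called at 1.00 (adjusted p = 0.002025), and without RIP replicate 1 it was at 0.02 and not called (adjusted p = 0.945). METTL5, the 18S rRNA methyltransferase, was not called at -0.46 ± 0.22, and its cofactor TRMT112 was depleted (-1.42 ± 0.21). With the GC offset 5 of the 11 were enriched, 1 was depleted, and the median was 0.99.

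Both demethylases were tested. ALKBH5 was depleted, with 45.9, 48.4 and 52.0 CPM in input and 28.3, 13.04 and 12.3 CPM in RIP (-1.45 ± 0.30), and with the GC offset its log2 ratio was -0.86. FTO was not called at 0.45 ± 0.22 (adjusted p = 0.092), and without input replicate 1 it was called at 0.74 (adjusted p = 0.0154). Among 16 readers and reader-like proteins, 6 (37.5%) were enriched and 4 (25.0%) depleted, against 20.9% and 19.0% of all genes tested. YTHDF3 (1.90 ± 0.22), YTHDF2 (1.87 ± 0.19) and YTHDC1 (1.84 ± 0.21) were enriched, as were EIF3A (2.13 ± 0.19), HNRNPA2B1 (1.67 ± 0.24) and FXR1 (1.21 ± 0.24). YTHDF2, the reader that recruits deadenylation, had 136, 94.7 and 110.1 CPM in input and 507, 398 and 341 CPM in RIP. YTHDF1 was at 0.47 ± 0.19, under 2-fold, and its call was lost without any 1 of the inputs and without RIP replicate 1 (0.24, adjusted p = 0.248). YTHDC2, a helicase of germ cells, was not called at -0.30 ± 0.22 without the offset and was called at -1.05 with it. IGF2BP1, which stabilises MYCN and other mRNAs, was depleted, with 250.3, 224 and 241 CPM in input and 64.3, 67.8 and 61.2 CPM in RIP (-1.89 ± 0.19). Its paralog IGF2BP3 was called at 0.74 ± 0.19, less than 2-fold. FXR2 (-1.62 ± 0.23), ELAVL1 (-1.01 ± 0.19) and PRRC2A (-1.005 ± 0.22) were the other depleted readers. The reader list had a median of 0.55, which was -0.01 with the GC offset.

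The transcription factors that hold neuroblastoma cells in the adrenergic state were expressed at high levels and mostly lay near or somewhat above the typical gene. Of 22 tested, 4 (18.2%) were enriched and 1 (4.5%) depleted at 2-fold, against 20.9% and 19.0% of all genes tested. Another 9 were called with a smaller ratio, and the median was 0.54. HAND2, which works with GATA3 in this circuit, had 2678, 3044 and 2836 CPM in input and 10882, 5745 and 5086 CPM in RIP (1.34 ± 0.25). Every RIP value was above every input, but replicate 1 was far above the others. MEIS2 was at 1.37 ± 0.19, KLF7 at 1.59 ± 0.22 and SIX3 at 1.01 ± 0.25. ISL1, a LIM homeobox factor, was called just under 2-fold (0.99 ± 0.17), with 121, 157 and 143 CPM in input and 289, 292 and 255 CPM in RIP. MYCN, the amplified oncogene, was among the most abundant transcripts at 5492, 6830 and 6611 CPM in input and 8522, 6622 and 6024 CPM in RIP. Those ranges overlapped, and its log2 ratio of 0.16 ± 0.20 was not called (adjusted p = 0.513). PHOX2A, a homeobox factor of noradrenergic neurons, was strongly depleted, with 417, 500.6 and 484 CPM in input against 69.5, 68.1 and 57.5 CPM in RIP (-2.85 ± 0.18). GATA3 (-0.10 ± 0.16), HAND1 (-0.19 ± 0.18) and INSM1 (-0.24 ± 0.29) were not called, but INSM1 was called at -0.78 without RIP replicate 1 (adjusted p = 0.00508). SOX11 was called at 0.80 ± 0.26, and without RIP replicate 1 it was at 0.28 and not called (adjusted p = 0.192). With the GC offset SOX11 was at 0.59 and not called either (adjusted p = 0.0545). TBX2, with a GC content of 66.1%, was called at -0.68 ± 0.26 but not without input replicate 2 or 3 or RIP replicate 2 or 3, and its sign turned with the GC offset (0.42, adjusted p = 0.0494). The median of the list was 0.75, 0.26 and 0.15 in RIP replicates 1, 2 and 3, and 0.25 in the fit without replicate 1.

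Other families of developmental regulators were mixed, and RIP replicate 1 moved their medians. Of 95 homeobox genes tested 21 were enriched and 2 depleted (22.1% and 2.11%, against 20.9% and 19.0% of all genes tested). Their median was 0.49, but 0.15 without RIP replicate 1, and with the GC offset 30 were enriched and 3 depleted. POU3F2, a neural POU factor, had 38.9, 59.0 and 45.3 CPM in input and 405, 226 and 201 CPM in RIP (2.54 ± 0.27). ZEB1, a driver of mesenchymal states, had 66.2, 99.0 and 71.1 CPM in input and 419, 463.5 and 450 CPM in RIP (2.50 ± 0.21). Both were above all inputs in each RIP library. Of 53 SOX, FOX and KLF factors, 11 were enriched and 5 depleted (20.8% and 9.43%), with a median of 0.63 that was 0.38 without RIP replicate 1. SOX4, which has 1 exon, was at 1.98 ± 0.28, from 250, 312 and 257 CPM to 1776, 754 and 686 CPM, with replicate 1 the highest. KLF16 was depleted (-2.12 ± 0.26). The basic helix-loop-helix and ID proteins went both ways, with 6 enriched and 11 depleted of 44 tested and a median of -0.19 (0.65 with the mitochondrial reference). It was -0.34 without RIP replicate 1 and -0.60 among members of at least 10 CPM in the input. NEUROD1, a proneural factor, was at 2.65 ± 0.19 with 265, 337 and 291 CPM in input and 2094, 1839 and 1661 CPM in RIP. ID2, an inhibitor of this family, was enriched (1.57 ± 0.18) and HES4 depleted (-2.01 ± 0.40).

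Immediate early genes, whose mRNAs turn over quickly, were enriched in 7 and depleted in 3 of 34 tested (20.6% and 8.82%, against 20.9% and 19.0% of all genes tested). Their median of 0.54 was 0.20 without RIP replicate 1, and it was 0.88, 0.36 and 0.36 in the 3 RIP libraries. IER3 was highest, with 19.2, 30.9 and 18.2 CPM in input and 250.2, 148 and 135 CPM in RIP (2.98 ± 0.26), and IER5L followed (1.65 ± 0.28). PLK3 (-2.40 ± 0.42) and ARC (-1.35 ± 0.28) were depleted, and ARC was not called with the GC offset. SOCS genes, which code for feedback inhibitors of cytokine receptors, were enriched in 3 of 8 and depleted in 0 by edgeR at 2-fold. SOCS4 had 34.0, 24.4 and 31.9 CPM in input and 196, 271 and 225 CPM in RIP (2.93 ± 0.21), and SOCS5 was at 2.41 ± 0.30. SOCS7 was called at -0.71 ± 0.21, less than 2-fold.

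Genes of homologous recombination and the Fanconi pathway were enriched in 10 and depleted in 4 of 30 tested (33.3% and 13.3%, median 0.71). Of all genes tested 20.9% were enriched and 19.0% depleted. Among the 24 members of at least 10 CPM in the input, 7 (29.2%) were enriched and 4 (16.7%) depleted, and the median was 0.21. For all genes of that level the shares were 19.0% and 24.3%. Over all 30 members the median was 0.43 without RIP replicate 1. BRCA2, which acts in the repair of DNA breaks, had 33.3, 25.8 and 24.9 CPM in input and 103, 139 and 138 CPM in RIP (2.18 ± 0.21). XRCC2, another repair factor, was at 2.65 ± 0.18, whereas XRCC3 was at -2.14 ± 0.23 and FANCG at -1.93 ± 0.19. The median GC content of the list was 41.5%, and with the GC offset its median turned to -0.11, with 6 enriched and 7 depleted.

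Neuronal gene groups were mixed. Of 64 axon guidance ligands and receptors tested 13 were enriched and 12 depleted. These shares, 20.3% and 18.8%, were near those of all genes tested (20.9% and 19.0%). EPHA7, an ephrin receptor, was at 2.32 ± 0.25, and SEMA3A, a repellent guidance signal, at 2.23 ± 0.27. The netrin receptors UNC5A (-1.95 ± 0.20) and UNC5B (-2.02 ± 0.22) were depleted. Of 61 voltage-gated channels 18 (29.5%) were enriched and 6 (9.84%) depleted. KCNB2 was at 2.62 ± 0.25 and SCN1A at 2.04 ± 0.21, while KCNT1 was depleted (-1.73 ± 0.44). Genes of catecholamine synthesis and secretory granules had 2 enriched and 6 depleted of 19 (median -0.37, and 0.27 with the mitochondrial reference). SCG2, a granin, was enriched with 161, 155 and 194 CPM in input and 875, 1138 and 1110 CPM in RIP (2.61 ± 0.20), as was CHGB (1.56 ± 0.19), and PCSK1N, an inhibitor of prohormone convertase, was depleted (-2.37 ± 0.26). GCH1, which makes the cofactor of TH, was at -2.36 ± 0.49. Neurofilament and neurite genes had 3 enriched and 7 depleted of 28 (median -0.29, and 0.43 with that reference), with MAP1B at 1.33 ± 0.18 and NEFM at 1.30 ± 0.19 against CRMP1 at -2.27 ± 0.18 and UCHL1 at -2.23 ± 0.22.

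The most depleted groups were those of ribosomes, glycolysis and histones. Of 86 cytosolic ribosomal protein genes tested, 52 (60.5%) were depleted and 5 enriched, and the median log2 ratio was -1.51. Together they took 13.9%, 14.1% and 13.9% of the input and 4.58%, 7.33% and 6.08% of the RIP fragments. RPS9 was depleted from 1640, 1338 and 1720 CPM in input to 140.2, 113 and 136 CPM in RIP (-3.59 ± 0.24). RPL22L1 was the second highest member of at least 10 CPM, after RPL36AL (1.30 ± 0.27), and had no call with the GC offset. The list's median GC content was 47.5%, close to that of all genes, and its median was -1.43 with the GC offset. It was -1.91, -1.08 and -1.60 in the 3 RIP libraries. Because processed copies of these genes can take up reads, values of single members are uncertain.

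Of 16 glycolysis enzymes 12 were depleted and 0 enriched by edgeR at 2-fold, with a median of -1.55 that was -1.09 with the GC offset. GAPDH had 3857, 4224 and 4444 CPM in input and 399, 674 and 508 CPM in RIP (-2.99 ± 0.22). PFKL, the liver form of phosphofructokinase, was at -2.68 ± 0.23. The highest members were HK2 (-0.33 ± 0.25) and LDHA (-0.44 ± 0.21), neither of them called. HK2 was called at -0.58 without input replicate 2 (adjusted p = 0.0452) and LDHA at -0.58 without RIP replicate 3 (adjusted p = 0.0422). With the GC offset LDHA was called at -1.11 (adjusted p = 2.79e-05), and HK2 was not called (-0.38, adjusted p = 0.171). Replication-dependent histone genes are short genes of 1 exon whose mRNAs normally carry no poly(A) tail. Of 56 tested 30 were depleted and 0 enriched by edgeR at 2-fold, with a median of -1.43. H2BC13 had 24.4, 38.8 and 19.5 CPM in input and 2.62, 3.25 and 0.84 CPM in RIP (-3.64 ± 0.46). H2BC8 was called above input at 0.91 ± 0.24, under 2-fold. Their median GC content was 58.0%, and with the GC offset 21 were depleted and 6 enriched.

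Both the nuclear-encoded and the mitochondrially encoded subunits of the respiratory chain had medians below that of all genes. Of 83 nuclear-encoded subunits 30 were depleted and 10 enriched, with a median of -0.54, which became 0.15 when the mitochondrially encoded mRNAs were the reference. NDUFS8, a subunit of complex I, was depleted from 381, 327 and 427 CPM to 63.1, 60.2 and 64.2 CPM (-2.60 ± 0.18). COX6C and COX7C, small subunits of cytochrome c oxidase, were enriched (3.05 ± 0.36 and 1.91 ± 0.34). COX6C had 206, 697 and 213 CPM in input and 1929, 3338 and 3928 CPM in RIP, so that input replicate 2 was far above the other inputs. Of the 13 mitochondrially encoded mRNAs 3 were depleted and 1 enriched (median -0.43, or -0.24 without RIP replicate 1, and 0.25 when they were the reference themselves). MT-ND1 had 2702, 5622 and 3915 CPM in input and 998, 1597 and 1482 CPM in RIP (-1.59 ± 0.30). MT-ATP8, which overlaps MT-ATP6, was enriched at 1.12 ± 0.27 and was not called with the GC offset. Mitochondrial ribosomal proteins had 21 enriched and 12 depleted of 77 and a median of -0.09, which turned sign with library totals alone (0.01), the GC offset (0.03) and the mitochondrial reference (0.66), among members of at least 10 CPM in the input (0.16) and without RIP replicate 1 (0.0051). MRPL50 had 60.5, 75.7 and 45.8 CPM in input and 370, 717 and 596.5 CPM in RIP (3.21 ± 0.28), and MRPL28 was at -1.91 ± 0.21. Proteasome subunits (9 depleted and 2 enriched of 34, median -0.65) and translation factors (13 depleted and 5 enriched of 45, median -0.49) also lay below the typical gene, and their medians became 0.04 and 0.18 with the mitochondrial reference. Without RIP replicate 1 the proteasome median was -0.41. Within the translation factors EIF5B was enriched (2.55 ± 0.23) and EEF1A2, an elongation factor of neurons, was depleted (-2.42 ± 0.18).

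**Figure D3:**
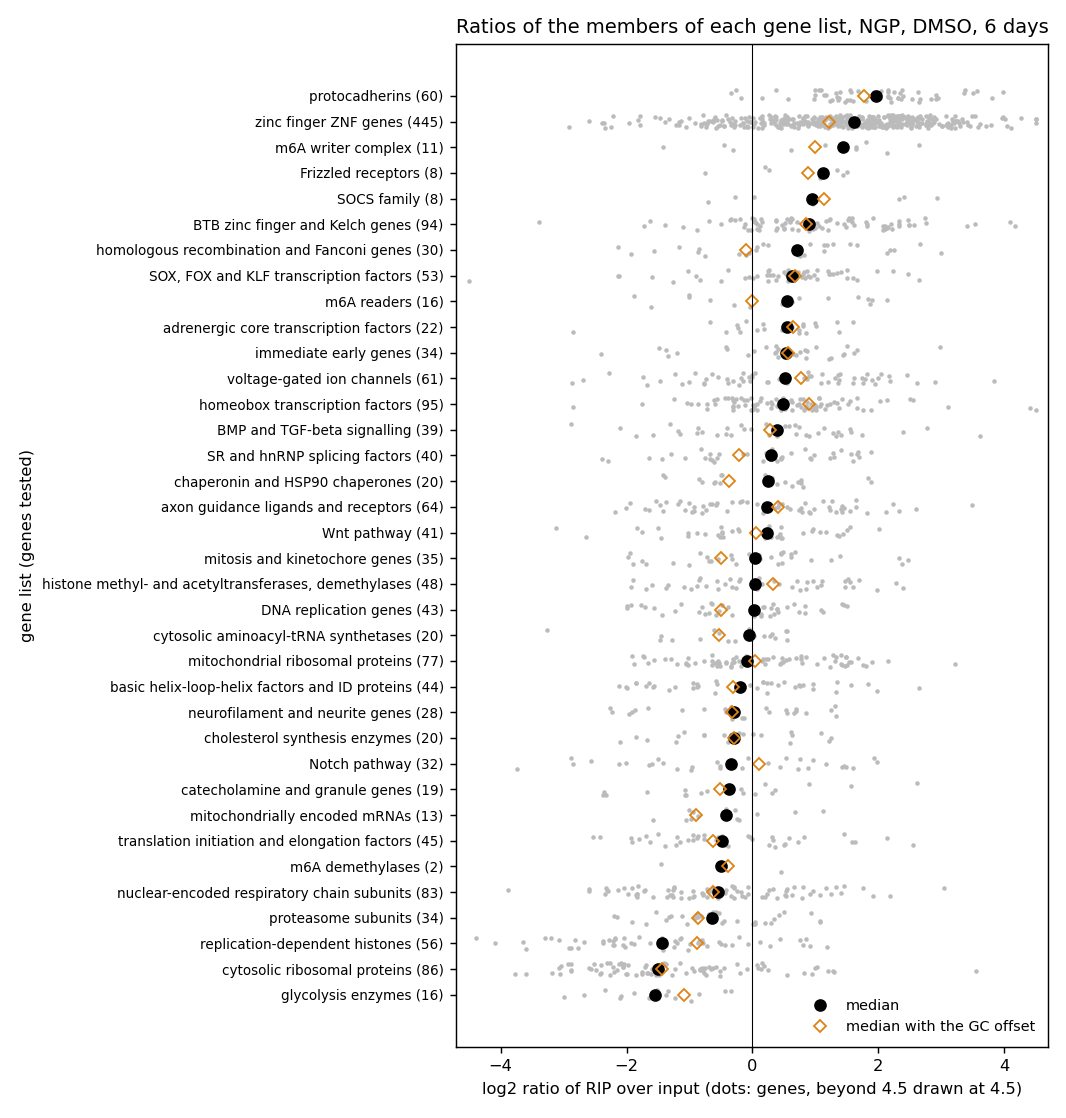
Log2 ratio of RIP over input of every tested member of each gene list (grey points, horizontal axis, values beyond 4.5 drawn at 4.5), with the list's median (black) and its median with the GC offset (open orange diamonds). Protocadherins (median 1.97) and ZNF genes (1.61) are at the top and ribosomal proteins (-1.51) and glycolysis enzymes (-1.55) at the bottom.

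Splicing factors went both ways. Of 40 SR and hnRNP genes 10 were enriched and 6 depleted (median 0.30, 0.50 without RIP replicate 1 and -0.21 with the GC offset). HNRNPF was at 1.88 ± 0.18 and HNRNPA3 at 1.69 ± 0.22, while PTBP1, the repressor of neuronal exons, was depleted from 654, 722 and 734 CPM to 141, 142 and 146 CPM (-2.30 ± 0.19). Histone lysine methyltransferases, demethylases and acetyltransferases had 12 enriched and 7 depleted of 48 (25.0% and 14.6%), also near the shares of all genes. Among them KAT6B, an acetyltransferase, was at 2.28 ± 0.19 and SUV39H2, a histone H3 methyltransferase, at 2.40 ± 0.21. KDM4B, a demethylase, was at -1.93 ± 0.21 and KAT2A at -1.90 ± 0.18.

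The structure of the transcripts moved with the ratio. Transcript bases that lay more than 100 bases from any splice junction were counted in the reference transcript of 12811 genes. Genes with up to 250 such bases had a median log2 ratio of -0.88, with 6.90% enriched and 41.2% depleted. The median was -0.80, -0.51, -0.08 and 0.32 in the next classes, and 0.65 for genes with over 4000 such bases, of which 34.4% were enriched and 6.50% depleted. Across genes the Spearman correlation was 0.36, and it was 0.40, 0.34 and 0.31 in the 3 RIP libraries. Genes are not independent replicates, and these values share libraries and depth, so no p is given. Genes with 1 exon block had a median of 0.51. Without the replication-dependent histones it was 0.74, and 39.1% of the remaining genes were enriched. In RIP replicates 1, 2 and 3 the median was 0.87, 0.21 and 0.15 with the histones, and 1.02, 0.36 and 0.32 without them. Genes with over 20 blocks had a median of 0.00, with 16.9% enriched and 18.1% depleted. A longest exon block of up to 500 bases went with a median of -0.67, and one of over 4000 bases with 0.53. The enriched genes had a median last exon of 2545 bases and the depleted genes one of 868.5 bases.

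GC content moved with the ratio as well. Genes of up to 40% GC had a median log2 ratio of 0.79, with 40.8% enriched and 3.67% depleted. Those over 60% GC had a median of -1.05, with 3.05% enriched and 45.7% depleted. The Spearman correlation across 12811 genes was -0.49, and -0.33, -0.55 and -0.59 in RIP replicates 1, 2 and 3. The mean GC content weighted by fragments was 51.5% to 51.8% in the inputs, and 49.3%, 47.7% and 47.5% in the RIP libraries. Its part in the enrichment of single lists was not tested beyond the offset fit. With a GC offset for each library, an alternative chosen after the data were seen, 2182 of 12811 genes were enriched (17.0%) and 2132 depleted (16.6%). Of the 2739 genes enriched without the offset 1612 (58.9%) remained, and of the 2490 depleted ones 1422 (57.1%).

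The distance from splice junctions and the GC content were separated in a cross of both. Within each of 6 GC classes, genes with over 4000 bases far from junctions had a higher median than genes with up to 250. Among genes of 50 to 55% GC the medians ran from -0.69 to 0.28, and among those over 60% from -1.70 to -0.45. In the class of up to 40% they ran from 0.64, over 26 genes, to 1.03, and there and in the class over 60% the medians did not rise at every step.

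**Figure D4:**
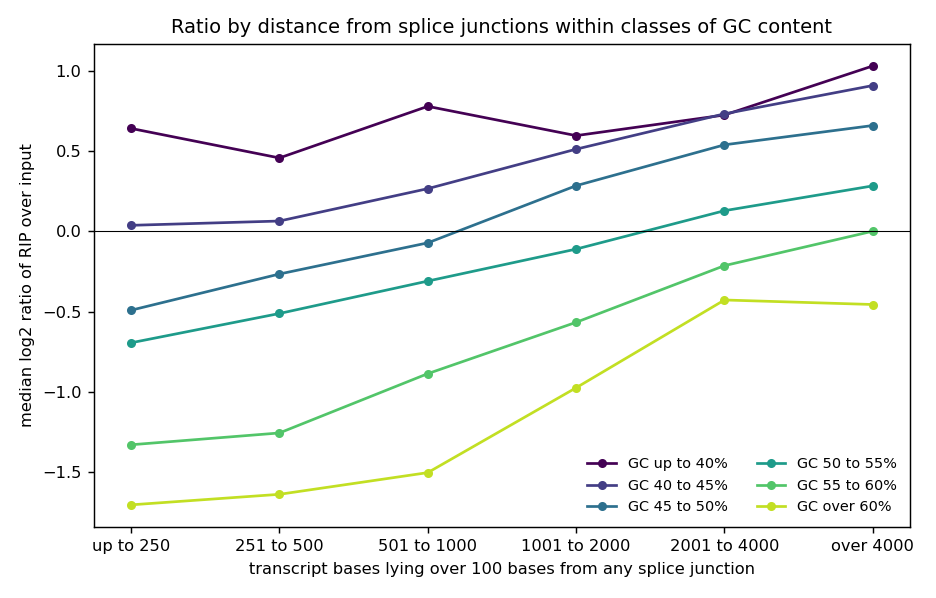
Median log2 ratio of RIP over input (vertical axis) by the number of transcript bases over 100 bases from any splice junction (horizontal axis), 1 line for each class of GC content. Each line ends higher than it starts, and the lines are ordered by GC content except where the 2 lowest GC classes meet, from 0.64 to 1.03 at up to 40% GC and from -1.70 to -0.45 at over 60% GC.

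The GGACT motif was common in all transcripts. Without the GC offset its presence told enriched and depleted genes apart little more than that of its reverse complement. It was found on the sense strand of 91.6% of all reference transcripts, of 93.0% of the enriched and 87.7% of the depleted ones. Its reverse complement AGTCC, counted on the same strand for comparison, was found in 87.1%, 89.3% and 84.7%. Outside 100 bases from a junction, GGACT was present in 83.3% of the enriched and 63.2% of the depleted transcripts, and AGTCC in 80.5% and 61.0%. Per 1000 bases of such sequence, among genes with at least that many, both motifs were less dense in the enriched (0.81 and 0.75 per kb) than in the depleted transcripts (0.92 and 0.96 per kb). Genes were also classed by motif density in such sequence, from none to over 2 per kb. With the GC offset the class medians of the log2 ratio were -0.22, 0.13, 0.16, 0.31 and 0.47 for GGACT. For AGTCC they were -0.02, 0.22, 0.21, 0.27 and 0.08. Without the offset, the first and last classes had 0.06 and 0.11 for GGACT, and 0.21 and -0.31 for AGTCC. In Kelly these were -0.82 and 0.85, and -0.27 and 0.19. What lies behind this was not tested. A match says nothing of whether a site is methylated.

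Kelly cells in DMSO for 6 days were the matched experiment, and a fit with library type, cell line and their interaction tested where the ratio differed. Of 13684 genes tested, 3276 (23.9%) had a higher ratio in NGP and 3032 (22.2%) a lower one (edgeR quasi-likelihood test, adjusted p under 0.05). The labels give no batch, and differences of the cell line and of its library preparation cannot be told apart. Across 12051 genes tested in both, the ratios had a Spearman correlation of 0.59, given as a description. Of the genes enriched in NGP, 1673 were also enriched in Kelly (64.5% of the NGP and 46.7% of the Kelly genes), and 1646 were depleted in both (68.6% and 40.5%). In Kelly 30.0% of 12859 tested genes were enriched and 32.7% depleted. The ratios were more spread in Kelly, with 5% of genes below -4.24 and 5% above 2.98, against -2.16 and 2.21 in NGP.

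Several groups had lower ratios in Kelly than in NGP. Of all genes tested 23.9% were called higher in NGP and 22.2% lower. Ribosomal protein genes had a median of -4.38 in Kelly against -1.51 in NGP, and 74 of 87 tested had a higher ratio in NGP and 0 a lower one by edgeR. The 13 mitochondrially encoded mRNAs were at a median of -4.26 in Kelly and -0.43 in NGP, and all 13 were called higher in NGP. Respiratory chain subunits of the nucleus were higher in NGP in 61 of 83 and chaperones in 18 of 20. Replication-dependent histones were not among these groups. Their medians were -1.86 in Kelly, over 27 genes, and -1.43 in NGP, over 56 genes. In the fit of the difference 55 were tested, and their median difference, NGP minus Kelly, was -0.33. Of these 8 were called higher in NGP and 4 lower. Protocadherins had a median of 3.33 in Kelly and 1.97 in NGP, with 16 of 61 called lower in NGP and 0 higher by edgeR. ZNF genes had medians of 1.81 in Kelly and 1.61 in NGP, and 113 of 489 were lower in NGP and 26 higher. In both lists the share called lower in NGP was near that of all genes, and the share called higher was below it. In the adrenergic list 15 of 22 were lower in NGP and 1 higher. Of the m6A methyltransferases and partners 2 of 11 were higher and 4 lower.

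Single genes showed how far NGP and Kelly cells of 6 days were apart. On the CPM scale of the 12 DMSO libraries of both lines, COX7C had 193, 512 and 207 CPM in input and 667, 1544 and 1218 CPM in RIP of NGP. In Kelly it had 228, 363 and 268 CPM in input but 9.04, 17.0 and 5.94 CPM in RIP, and the difference of the log2 ratios was 6.65 ± 0.64 (adjusted p = 3.61e-06). RPL34, a protein of the large ribosomal subunit, was at 504, 794 and 511 CPM in input and 425, 1063 and 556 CPM in RIP of NGP, and at 552, 753 and 589 CPM against 11.7, 11.9 and 2.47 CPM in Kelly (6.35 ± 0.63). COX6C differed by 5.26 ± 0.66. In the other direction TPGS1, a subunit of the tubulin polyglutamylase, had 43.4, 68.6 and 69.3 CPM in input and 61.6, 32.8 and 27.4 CPM in RIP of NGP. In Kelly it had 27.8, 24.8 and 28.1 CPM in input and 253, 224 and 314 CPM in RIP (-3.86 ± 0.40). HMX1, a homeobox factor, differed by -3.64 ± 0.51 and FAM171A2 by -3.77 ± 0.48. In Kelly the log2 ratio of COX7C was -4.89 at 6 days and -1.89 at 1 day, and that of RPL34 was -6.33 and -4.23. The values were -2.37 and -1.66 for COX6C, 3.13 and 2.16 for TPGS1, and 3.29 and 3.64 for HMX1. The sign of FAM171A2 turned against Kelly cells of day 1 (1.13, adjusted p = 0.0452): its own log2 ratio in Kelly was 3.82 at 6 days and -1.01 at 1 day.

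Transcript GC content moved with the difference between the lines. The genes higher in NGP had a median GC content of 43.6% and those lower in NGP of 57.6%, against 49.3% for all. In Kelly the ratio had a Spearman correlation of 0.10 with GC content, against -0.49 in NGP, and the RIP libraries of Kelly had a higher mean GC content (54.3% to 55.5%) than their inputs (52.9% to 53.1%). The correlation with bases far from splice junctions was alike, 0.37 in Kelly and 0.36 in NGP. With the GC offset 2597 genes were higher in NGP and 3355 lower, and all 6 of the genes named for their difference were still called. Their differences were smaller with it: 5.42 for COX7C, 5.16 for RPL34 and 3.97 for COX6C. Those lower in NGP, with a GC content of 71.2% to 74.1%, shrank most. TPGS1 was then at -1.18, FAM171A2 at -1.56 and HMX1 at -1.17. The part of GC content in the difference was not tested beyond this offset.

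**Figure D5:**
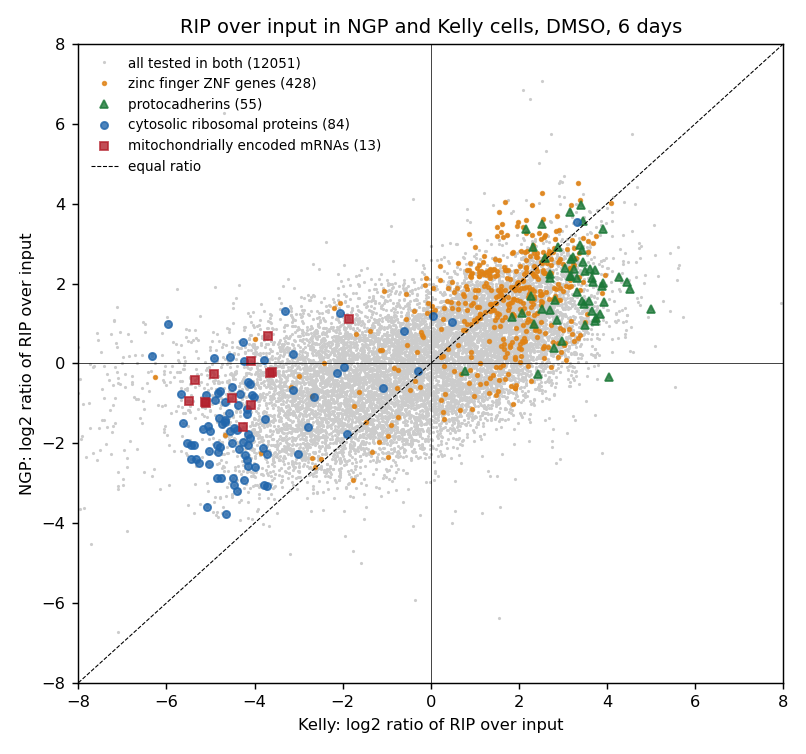
Log2 ratio of RIP over input in NGP (vertical axis) against Kelly (horizontal axis) in DMSO at 6 days for 12051 genes tested in both, with 4 gene lists in colour and a dashed line of equal ratios. Most ribosomal protein mRNAs (blue) and all 13 mitochondrially encoded mRNAs (red) lie left of the line, with Kelly medians of -4.38 and -4.26, while ZNF genes and protocadherins lie at positive ratios in both lines for most members.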

How the data were processed

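The authors deposited raw fragment counts per gene, 1 table per library. Per the file headers they came from featureCounts 1.5.3 on paired fragments over exons, with the protein-coding part of GENCODE 33 (GRCh38), without strand and without fragments that overlap several genes. The submitters' processing notes also name Trimmomatic 0.36 and HISAT2 2.1.0.

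Counts of the 12 NGP libraries were fitted with edgeR 4.0.16 (R 4.3.3; TMM, filterByExpr with a minimum count of 10 and total of 15, glmQLFit and glmQLFTest), with 1 mean per library type and treatment. The contrast was RIP minus input in DMSO. A gene was called at a two-sided Benjamini-Hochberg adjusted p under 0.05 and a 2-fold ratio. SE is the log2 ratio over the root of F. The comparison with Kelly used the 12 DMSO libraries of 6 days. GC content, splice junctions and motifs come from 1 GENCODE 44 transcript per gene; 95.5% of names were found and 96.0% of exons were identical. Per-library list medians used log2(CPM + 1).

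The genes named are the 8 highest and 8 lowest ratios, the 2 highest and 2 lowest members of each list of at least 10 CPM, all m6A and adrenergic members (some members are not reported here), and the 3 largest differences from Kelly each way. Members and lists were chosen with earlier results of these data known. The alternatives were RLE factors, library totals, mitochondrial reference, DESeq2 1.42.0, no low-count filter, 6 libraries alone, replicate block, glmTreat, shared exons left out, GC offset and each library left out. Counts simulated with known changes served as a check. For RIP over input, 41.7% of genes changed 2-fold and 90.8% of those changed 4-fold were recovered, with 5.15% false among the calls. For NGP minus Kelly the values were 2.06% and 46.5%, with 7.69% false. A gene that was not called may therefore still differ, above all in the comparison with Kelly.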

Additional observations from a re-analysis of the deposited data

Results flagged for a closer look

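The ratio of RIP over input differed between NGP and Kelly cells in DMSO at 6 days by a test of the difference itself (the interaction of library type and cell line in edgeR). It was higher in NGP for 3276 genes and lower for 3032. The largest differences among abundant genes were those of COX7C (6.65), RPL34 (6.35) and COX6C (5.26), higher in NGP, and of TPGS1 (-3.86), FAM171A2 (-3.77) and HMX1 (-3.64), lower in NGP, all on the log2 scale. With the GC offset they were 5.42, 5.16, 3.97, -1.18, -1.56 and -1.17 in the same order. Differences of the cell line and of its library preparation cannot be told apart.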

How the results depend on the processing

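The counts of 2739 enriched and 2490 depleted genes stayed within 1.5 times under RLE factors, library totals, DESeq2, no low-count filter, the 6 libraries alone and the GC offset. They were 5134 and 1005 with the mitochondrial reference and 1593 and 1495 with glmTreat against 2-fold, and 1645 genes were depleted when those sharing exon positions were left out. Leaving out 1 library gave 2602 to 2834 enriched and 2337 to 2464 depleted genes. Same-numbered input and RIP libraries did not deviate together (correlations 0.0175, 0.0203 and 0.00778), so the numbers were not taken as pairs; with a replicate block 2661 genes were enriched and 2434 depleted, and 3115 were higher and 2702 lower in NGP than in Kelly. Of the 187 named genes, 5 were counted as reversed with the GC offset: TARS1 (-0.0389), LARS1 (-0.14), HAND1 (0.40), TBX2 (0.42) and INSM1 (0.75). PCDH8 changed sign too, from -0.26 to 0.31, but was called in neither fit and is not in that count. FAM171A2 changed sign with Kelly day 1 (1.13). The causes were not tested. Depth limits genes under 10 CPM most.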

Other observations

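Signalling pathways outside those described held both enriched and depleted members, as all genes tested did (20.9% and 19.0%). Of 39 genes of BMP and TGF-beta signalling tested, 10 (25.6%) were enriched and 5 (12.8%) depleted. Their median log2 ratio was 0.39, and 0.11 without RIP replicate 1. SKIL, a repressor of SMAD proteins, was highest among members of at least 10 CPM in the input, with 14.8, 14.99 and 10.9 CPM in input and 98.1, 95.4 and 82.2 CPM in RIP (2.77 ± 0.27). ID3, a target of BMP, was depleted (-1.86 ± 0.22). In the Notch pathway 7 of 32 were enriched and 10 depleted, with a median of -0.34 (-0.57 among members of at least 10 CPM in the input) that turned to 0.10 with the GC offset and 0.47 with the mitochondrial reference. ADAM17, a protease that can cut Notch, was at 1.60 ± 0.22, and the coactivator MAML3 at 1.49 ± 0.23. LFNG (-3.74 ± 0.43) and MFNG (-2.89 ± 0.23), the fringe glycosyltransferases that modify Notch, were depleted. In the Wnt pathway 5 of 41 (12.2%) were enriched and 8 (19.5%) depleted. The median was 0.22, but -0.30 without RIP replicate 1 and -0.23 among members of at least 10 CPM in the input. APC (2.01 ± 0.23), a scaffold of the complex that degrades beta-catenin, and the coreceptor LRP6 (1.56 ± 0.23) were enriched. DVL1 (-3.12 ± 0.23) and DVL2 (-2.65 ± 0.22), which carry the signal from Frizzled receptors, were depleted. DVL1 went from 167, 241 and 202 CPM in input to 27.01, 16.7 and 25.99 CPM in RIP.

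Cell division genes had medians near the typical gene. Of 35 mitosis genes 5 were enriched and 7 depleted, and of 43 DNA replication genes 5 were enriched and 9 depleted. CENPF, a kinetochore protein, had 454, 444 and 422 CPM in input and 2234, 2529 and 2532 CPM in RIP (2.47 ± 0.19). CCNA2, cyclin A, was depleted from 184, 123.2 and 176 CPM to 32.5, 41.0 and 51.8 CPM (-1.95 ± 0.22). FEN1, the flap endonuclease, was at 1.502 ± 0.19 and POLD2, a subunit of DNA polymerase delta, at -1.996 ± 0.17. The medians of both lists were 0.04 and 0.02, and -0.50 and -0.51 with the GC offset. Among 20 chaperonin and HSP90 genes HSP90B1 (1.89 ± 0.20) and HSP90AA1 (1.83 ± 0.25) were enriched, while CCT4 (-1.42 ± 0.20) and TRAP1 (-1.40 ± 0.21) were depleted. Of 20 cytosolic aminoacyl-tRNA synthetases 4 were depleted, with VARS1 at -3.27 ± 0.19, and 0 were enriched by edgeR at 2-fold, a count that was 0 too with p left unadjusted (under 0.05) and with DESeq2. Of 20 cholesterol synthesis enzymes 3 were enriched and 6 depleted, with HMGCS1 at 1.22 ± 0.19 and LSS at -2.10 ± 0.21. Of 8 Frizzled receptors 2 were enriched, and FZD3 had 19.7, 11.7 and 16.7 CPM in input and 43.3, 43.6 and 36.9 CPM in RIP (1.35 ± 0.25), a call that was lost with the GC offset.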
